A study of Mus musculus with 12 samples.

Results

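A set of 10 genes was followed in RNA from colonic epithelium of control mice and of mice labelled as intestinal knockouts of Ehf, out of 55304 gene symbols in the count tables. Several of them, such as Scn2b, Sptbn4, Aplp1 and Elavl4, are best known from nerve cells, whereas Vipr1 is abundant in this epithelium and Insrr and Smim38 are not nerve markers. Of these, 6 were selected on the measured values themselves, as low-abundance transcripts whose CPM was lower in the knockout libraries: Scn2b, Sptbn4, Vipr2, Insrr, Smim38 and Aplp1. The other 4 were set beside them: Vipr1, the close relative of Vipr2, and the enteric nerve markers Uchl1, Snap25 and Elavl4. Because the knockout libraries themselves chose the first 6 genes, their differences from the controls are given as a description, and no test of those differences is used as support.

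Total RNA from 12 C57BL/6 mice aged 6 weeks was sequenced, 4 mice in each of 3 groups. Control-OIL mice were labelled wild-type and received sunflower oil, and their source names begin with EVCER. EHF IKO mice carry the same source prefix, were labelled as intestinal knockouts of Ehf and received tamoxifen. Control-TMX mice were labelled wild-type, came from the source VilCreER and received tamoxifen, and the series text gives them as a control for changes that tamoxifen itself induces. VilCreER denotes a Cre recombinase that the Villin promoter drives in intestinal epithelium and that tamoxifen activates. EHF IKO thus differs from Control-OIL in the drug as well as in Ehf, and from Control-TMX in the mouse line as well as in Ehf. The epithelium was shaken off the opened colon in EDTA and the smooth muscle was taken out of the sample, so some cells from beneath the epithelium can remain. Ehf belongs to the ETS family of transcription factors and is made in epithelia. Its level was 428 ± 46.4, 345 ± 21.0 and 341 ± 30.1 CPM (library-size-scaled counts, mean ± SD of 4 libraries) in Control-OIL, Control-TMX and EHF IKO. With edgeR, the log2 fold change of Ehf in EHF IKO was -0.33 ± 0.11 (SE, adjusted p = 0.159) beside Control-OIL. Beside Control-TMX it was -0.02 ± 0.11 (adjusted p = 0.972 in edgeR), so its whole-gene count did not set the knockout libraries apart from Control-TMX. The deleted exons are not named, and a count over the whole gene can include transcripts that lack them, so the counts do not check the label. The word knockout is used here after that label.

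A voltage-gated sodium channel consists of a pore-forming alpha subunit and smaller beta subunits that steer its gating and its place in the membrane. In axons, a scaffold of ankyrin and spectrin holds these channels at the initial segment and the nodes of Ranvier. Vasoactive intestinal peptide (VIP), released by enteric neurons, acts on G protein-coupled receptors that raise cyclic AMP, and in the gut epithelium this drives chloride and fluid secretion. Enteroendocrine cells, the hormone-secreting cells of the epithelium, share much of the machinery of regulated secretion with neurons, so a gene named after nerve is not by itself a mark of nerve tissue.

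Promoter sequence was matched for 8 of the 10 genes, in 14 windows of 250 bases before a RefSeq transcription start (GRCm38.p6). Insrr and Snap25 had no entry. The windows of 4 of the lower genes and of Vipr1 are shown because ETS factors bind DNA around the letters GGAA, and Vipr1 is the comparison gene whose level changed little. Capitals mark GGAA or, on the other strand, TTCC. The Scn2b window is cut to the 156 bases before the gene start in the annotation used for counting.
Scn2b, chr9:45117626-45117781, plus strand: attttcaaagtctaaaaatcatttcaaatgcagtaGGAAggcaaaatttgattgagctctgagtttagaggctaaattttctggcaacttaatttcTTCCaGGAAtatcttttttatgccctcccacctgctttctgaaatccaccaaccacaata
Vipr2, chr12:116077476-116077725, plus strand: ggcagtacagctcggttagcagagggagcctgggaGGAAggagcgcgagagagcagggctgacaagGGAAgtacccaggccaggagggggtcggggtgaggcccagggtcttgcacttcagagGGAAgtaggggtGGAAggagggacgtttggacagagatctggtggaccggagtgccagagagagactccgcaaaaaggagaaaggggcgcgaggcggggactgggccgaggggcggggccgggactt
Smim38, chr7:145208120-145208369, minus strand: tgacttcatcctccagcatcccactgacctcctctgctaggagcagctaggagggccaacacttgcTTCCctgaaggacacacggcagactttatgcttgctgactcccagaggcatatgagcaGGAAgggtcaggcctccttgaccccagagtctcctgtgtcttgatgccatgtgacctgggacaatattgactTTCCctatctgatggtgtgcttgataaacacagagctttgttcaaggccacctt
Aplp1, chr7:30445583-30445832, minus strand: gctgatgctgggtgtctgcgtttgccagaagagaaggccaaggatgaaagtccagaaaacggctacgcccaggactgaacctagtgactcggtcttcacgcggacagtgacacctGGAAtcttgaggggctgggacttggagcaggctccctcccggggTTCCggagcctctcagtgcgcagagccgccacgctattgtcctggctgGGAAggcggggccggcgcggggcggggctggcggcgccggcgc
Vipr1, chr9:121642466-121642715, plus strand: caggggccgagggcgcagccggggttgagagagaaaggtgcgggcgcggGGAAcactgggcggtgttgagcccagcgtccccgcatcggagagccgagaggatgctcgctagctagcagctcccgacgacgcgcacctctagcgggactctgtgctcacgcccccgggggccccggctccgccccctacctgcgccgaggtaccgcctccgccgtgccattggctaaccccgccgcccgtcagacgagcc
Counted on both strands over the full 250 bases, GGAA occurred 5 times in the Scn2b window, 4 times in Vipr2, 3 times in Smim38, 3 times in Aplp1 and once in Vipr1. Of the nerve markers, Uchl1 had 2 matches, and the 4 windows of Elavl4 had 2 or 3 each. The core is common, since 93.4% of all 32851 promoter windows of that length hold it, with a mean of 2.91 matches. The longer form AGGAAG, which overlaps GGAA, was found 2 times for Scn2b and once each for Vipr2 and Smim38, against 29.5% of all windows with a match. CGGAAG, present in 13.6% of all windows, was found in none of the 14. The repressor of neuronal genes REST binds a long element whose left and right parts can be searched as TTCAGCACC and GGACAGCG. These occur in 0.301% and 0.992% of all windows and in none of the 14. For Sptbn4, the 4 windows held GGAA at most once each. A match is a string of letters and not a bound site.

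The libraries held 7421411 to 10344161 counted reads (median 8138352), and 15743 genes passed the count filter. Levels are given in CPM (library-size-scaled counts, with TMM factors), as mean ± SD of 4 libraries unless each library is listed, and libraries are listed in the order of their replicate numbers. The epithelial markers (Epcam, Cdh1, Vil1 and 7 others) summed to 8936, 10362 and 11183 CPM in Control-OIL, Control-TMX and EHF IKO, as the tissue label says. Xist and Y-linked genes read the first 2 replicates of each group as female and the other two as male. EHF IKO replicate 2 stood apart: 11 genes, each with at least 1000 counts and at least 20 times its level in every other library, took 10.4% of its counts. The mean of each of the 6 lower genes is therefore also given without it.

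Against the mean of both controls, edgeR's quasi-likelihood test with Benjamini-Hochberg adjustment placed 5 of the 6 lower genes past an adjusted p of 0.05, where 0.858% of all genes tested were called lower. Against Control-OIL alone the count was 5 of 6 (0.762% of all genes called lower) and against Control-TMX alone 6 of 6 (0.47%). The rule used these contrasts, so nothing is read from the counts. The median log2 fold change of the 6 genes was -1.73 against the mean of both controls, beside 0.01 over all genes tested. The 2 comparisons with a single control share the EHF IKO libraries. Values just inside and just outside the choice can be set side by side: Aplp1, the least changed of the 6, had a log2 fold change of -0.55 ± 0.14 (SE), and Snap25 and Vipr1 outside it had -0.40 ± 0.28 and -0.12 ± 0.11.

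Scn2b (chr9:45117782-45130070, plus strand), which encodes a beta subunit of voltage-gated sodium channels, had the largest fold of the set. Its levels were 7.13, 7.30, 5.10 and 6.91 CPM in the Control-OIL libraries. They were 2.17, 4.57, 2.12 and 2.43 CPM in Control-TMX. In EHF IKO they were 0.815, 0.690, 0.266 and 0.134 CPM, which rest on 7, 5, 2 and 1 reads. All 4 knockout libraries lay below all 8 control libraries, as for 1.23% of all genes tested. The means of 6.61 ± 1.02, 2.82 ± 1.17 and 0.476 ± 0.327 CPM put EHF IKO at 7.21% of Control-OIL and 16.9% of Control-TMX. The log2 fold change was -3.73 ± 0.39 (SE) against Control-OIL and -2.50 ± 0.42 against Control-TMX. In females the group means ran 7.21, 3.37 and 0.753 CPM and in males 6.00, 2.27 and 0.200 CPM, the same order in both. Without EHF IKO replicate 2 the knockout mean was 0.405 ± 0.361 CPM (n = 3).

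**Figure D1:**
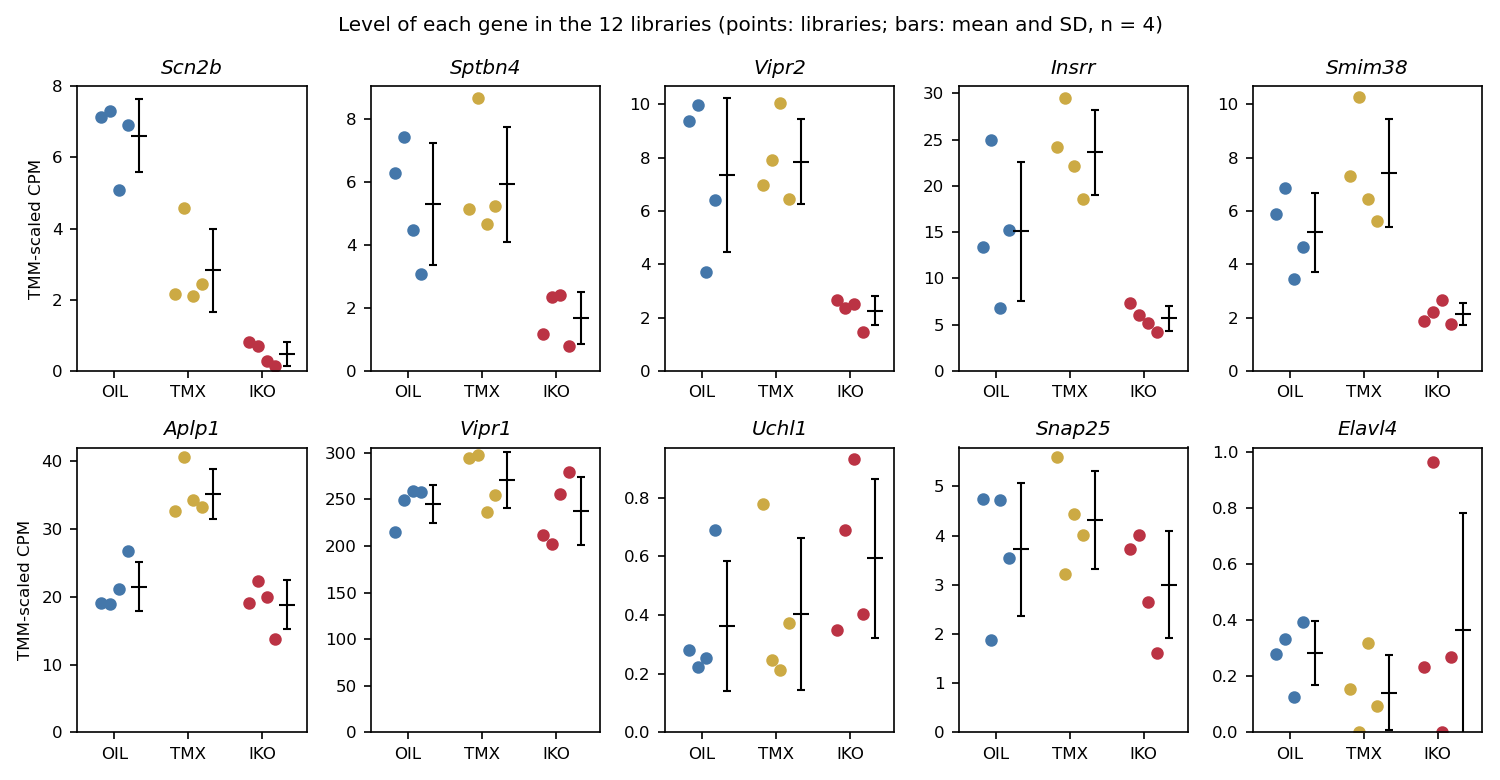
Level of each of the 10 genes (vertical axis, TMM-scaled CPM) in each library, by group (horizontal axis: Control-OIL, Control-TMX, EHF IKO), with the mean and SD of 4 libraries; each panel has its own scale from 0, and SD bars that would pass below 0 are clipped there. For Scn2b, Sptbn4, Vipr2 and Smim38 all 4 EHF IKO points lie below all 8 control points, as for 1.23% of all genes tested. These genes were chosen as lower in the same EHF IKO libraries. For Vipr1, with group means of 245, 271 and 238 CPM, the groups overlap.

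Sptbn4 (chr7:27356383-27447686, minus strand) encodes a beta spectrin that anchors sodium channels at the axon initial segment through ankyrin. Its level was 6.29, 7.41, 4.46 and 3.06 CPM in Control-OIL and 5.13, 8.65, 4.66 and 5.24 CPM in Control-TMX. The EHF IKO libraries held 1.16, 2.35, 2.39 and 0.806 CPM. Every knockout library was below every control library, with the closest pair 2.39 CPM in EHF IKO and 3.06 CPM in Control-OIL. Without EHF IKO replicate 2 the knockout mean of Sptbn4 was 1.46 ± 0.833 CPM (n = 3). Its log2 fold change was -1.66 ± 0.37 (SE) against Control-OIL and -1.82 ± 0.36 against Control-TMX. Of its exon bases, 3.94% are shared with 2 other annotated genes that had at most 8 reads over all libraries.

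Most other sodium channel subunits were too scarce to be tested. Of 13 other subunit genes listed, 2 passed the count filter, and edgeR called neither in EHF IKO against the mean of both controls (1 had an unadjusted p under 0.05, and DESeq2 and limma-voom called 0). Scn3a, a pore-forming subunit, was at 5.46 ± 1.25, 5.23 ± 1.47 and 3.71 ± 1.10 CPM in Control-OIL, Control-TMX and EHF IKO, with a log2 fold change of -0.51 ± 0.24 (edgeR adjusted p = 0.427). Scn11a, another alpha subunit, was at 0.975 ± 0.202, 1.11 ± 0.354 and 0.574 ± 0.815 CPM (-0.89 ± 0.55, adjusted p = 0.606). Scn3b, a beta subunit like Scn2b, did not pass the filter, and was at 0.597, 0.477 and 0.583 CPM. The summed level of the 13 genes was 22.6 CPM in EHF IKO replicate 2 and 5.51 to 7.69 CPM in the other knockout libraries, against 6.46 to 11.6 CPM in the controls.

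Other genes of the axonal scaffold were measured beside Sptbn4. Sptbn1, the abundant beta spectrin of epithelia, had a log2 fold change in EHF IKO of 0.08 ± 0.09 (SE) with the controls averaged (edgeR adjusted p = 0.822). Ank3, the ankyrin of axon initial segments, had one of 0.28 ± 0.15 (edgeR adjusted p = 0.513).

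Vipr2 (chr12:116077726-116146261, plus strand) and Vipr1 (chr9:121642716-121672954, plus strand) encode receptors for VIP and the related peptide PACAP. Vipr2 was at 9.36, 9.96, 3.69 and 6.42 CPM in Control-OIL and 6.99, 7.91, 10.1 and 6.45 CPM in Control-TMX. In EHF IKO it was at 2.68, 2.35, 2.53 and 1.48 CPM. The knockout libraries all lay under the controls, although Control-OIL alone spread more than 2-fold. Their mean without EHF IKO replicate 2 was 2.23 ± 0.654 CPM (n = 3). On the log2 scale the change was -1.69 ± 0.30 (SE) against Control-OIL and -1.79 ± 0.30 against Control-TMX. The antisense gene Gm20658 lies within the span of Vipr2 and shares no exon base with it, and it was at 1.22 ± 0.452, 1.75 ± 0.444 and 0.535 ± 0.501 CPM (-1.47 ± 0.46, edgeR adjusted p = 0.14). Strand was not used in counting, so unannotated exons of either gene cannot be told apart.

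Vipr1, by contrast, was an abundant transcript, at 215, 249.5, 259 and 258 CPM in Control-OIL and 294, 297, 236 and 255 CPM in Control-TMX. EHF IKO held 212, 203, 256 and 279.8 CPM, and the 3 groups overlapped. The log2 fold change was -0.05 ± 0.12 against Control-OIL and -0.19 ± 0.12 against Control-TMX. Per kilobase of exon, the level of Vipr1 was 42.3, 46.7 and 41.0 CPM and that of Vipr2 was 1.65, 1.76 and 0.506 CPM in Control-OIL, Control-TMX and EHF IKO.

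Transcripts of the peptide genes were nearly absent from these libraries: Vip was at 0.327, 0.527 and 0.601 CPM, and the PACAP gene Adcyap1 at 0.0277, 0.0309 and 0.173 CPM. These RNA counts do not measure the peptides. None of the 4 other tested peptide and receptor genes of this family was called by edgeR, DESeq2 or limma-voom, and 0 had an unadjusted p under 0.05. Downstream of the receptors, 21 genes of cyclic AMP-driven secretion were tested. Of these, 1 was called lower and 0 higher (unadjusted p under 0.05: 4 lower and 0 higher; DESeq2 called 2 lower and 0 higher, limma-voom 1 lower and 0 higher). Adcy9, an adenylyl cyclase, fell from 32.9 ± 1.12 and 34.9 ± 2.56 CPM to 25.9 ± 2.36 CPM (log2 fold change -0.38 ± 0.09, edgeR adjusted p = 0.0376; 0.00686 to 0.137 over the alternatives). Leaving out any of 10 of the 12 libraries ended that call. Kcne3, a potassium channel subunit that supports chloride secretion, was at 87.7 ± 13.1, 70.7 ± 11.8 and 56.2 ± 11.1 CPM (-0.49 ± 0.13, adjusted p = 0.0917). Cftr, the chloride channel that VIP opens, was at 170 ± 13.8, 148 ± 24.2 and 156 ± 37.1 CPM (-0.02 ± 0.13, adjusted p = 0.978). Against Control-OIL alone edgeR called 1 of the 21 lower, Kcne3 (log2 fold change -0.64 ± 0.15, adjusted p = 0.0455). There DESeq2 called 1 gene of the list lower and limma-voom 0. Against Control-TMX alone Kcne3 had -0.33 ± 0.15 (edgeR adjusted p = 0.409).

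Insrr (chr3:87796951-87816101, plus strand) encodes the insulin receptor-related receptor, a tyrosine kinase that senses alkaline fluid outside the cell. Its level was 13.4, 25.0, 6.75 and 15.2 CPM in Control-OIL and 24.2, 29.5, 22.1 and 18.6 CPM in Control-TMX. EHF IKO held 7.34, 6.07, 5.19 and 4.16 CPM. Of the knockout libraries, 3 lay below all controls, and the fourth, at 7.34 CPM, was above Control-OIL replicate 3 at 6.75 CPM. With EHF IKO replicate 2 left out, the mean of Insrr was 5.56 ± 1.62 CPM (n = 3). For Insrr the log2 fold change was -1.41 ± 0.32 (SE) against Control-OIL and -2.04 ± 0.32 against Control-TMX. Pear1 contains Insrr within its span on the opposite strand without a shared exon base, and it had the opposite sign (8.92 ± 3.90, 8.88 ± 1.26 and 15.4 ± 4.84 CPM; log2 fold change 0.80 ± 0.23, edgeR adjusted p = 0.111).

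Insr, the insulin receptor, was at 184 ± 16.2, 204 ± 9.60 and 189 ± 6.48 CPM (-0.03 ± 0.08, edgeR adjusted p = 0.95), and Igf1r at 35.7 ± 2.35, 33.3 ± 3.42 and 30.0 ± 3.62 CPM (-0.20 ± 0.10, adjusted p = 0.461). None of the 5 other tested genes of the insulin receptor family was called by edgeR, DESeq2 or limma-voom in EHF IKO against the mean of both controls, and 1 had an unadjusted p under 0.05.

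Smim38 (chr7:145205825-145208119, minus strand) encodes a small integral membrane protein. It was at 5.87, 6.86, 3.44 and 4.64 CPM in Control-OIL and 7.30, 10.3, 6.46 and 5.61 CPM in Control-TMX. EHF IKO held 1.86, 2.21, 2.66 and 1.75 CPM, below every control library, and averaged 2.09 ± 0.498 CPM without replicate 2 (n = 3). The log2 fold change was -1.29 ± 0.28 (SE) against Control-OIL and -1.79 ± 0.27 against Control-TMX. Smim38 lies within the span of Tpcn2, on the same strand and with no shared exon base. Tpcn2, a cation channel of endosomes and lysosomes, was at 31.3 ± 5.44, 30.4 ± 5.27 and 27.4 ± 3.27 CPM (-0.17 ± 0.13, edgeR adjusted p = 0.714).

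Aplp1 (chr7:30434982-30445535, minus strand), a relative of the amyloid precursor gene App that is known from brain, followed another pattern. It was at 19.1, 18.9, 21.1 and 26.8 CPM in Control-OIL and 32.6, 40.7, 34.2 and 33.2 CPM in Control-TMX. EHF IKO held 19.1, 22.4, 19.96 and 13.8 CPM. The knockout libraries all lay below Control-TMX, but only 1 of the 4 lay below all of Control-OIL. The mean of Aplp1 without EHF IKO replicate 2 was 17.6 ± 3.31 CPM (n = 3). The log2 fold change was -0.90 ± 0.15 (SE) against Control-TMX and -0.20 ± 0.15 against Control-OIL. App was at 455 ± 52.8, 541 ± 37.8 and 468 ± 49.3 CPM (-0.08 ± 0.10 with both controls averaged, edgeR adjusted p = 0.846) and Aplp2 at 168 ± 19.9, 174 ± 7.70 and 162 ± 13.8 CPM (-0.08 ± 0.09, adjusted p = 0.836). None of the 13 other tested genes of the APP family and its secretases was called by edgeR, DESeq2 or limma-voom, and 1 had an unadjusted p under 0.05.

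**Figure D2:**
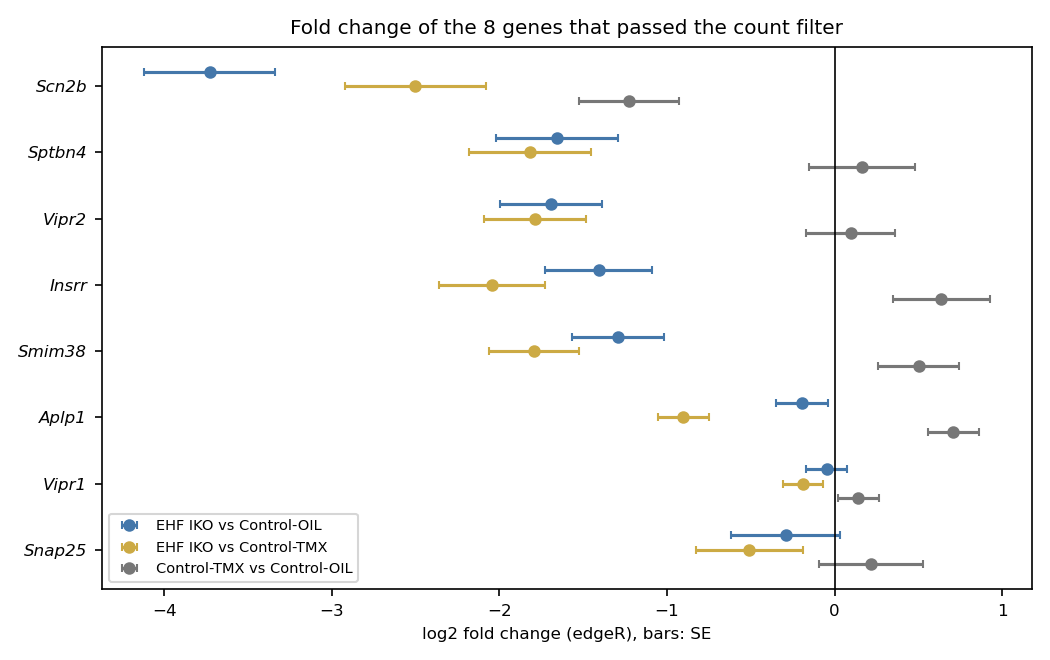
Log2 fold change from edgeR (horizontal axis) of the 8 genes that passed the count filter, as points with SE bars, for EHF IKO against each control and for Control-TMX against Control-OIL. Scn2b lies at -3.73 against Control-OIL and -2.50 against Control-TMX, and its point for the 2 controls, at -1.23, is also below 0; Aplp1 lies at -0.20 and -0.90, with 0.71 between the controls.

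Per kilobase of exon, in Control-OIL, Vipr1 was the highest of the 10 at 42.3 CPM, followed by Aplp1 (7.12), Smim38 (4.07), Insrr (2.64), Vipr2 (1.65) and Scn2b (1.42). Below them came Sptbn4 (0.555), Snap25 (0.549), Uchl1 (0.222) and Elavl4 (0.0526). In EHF IKO the order of the lower genes was Aplp1 (6.24), Smim38 (1.66), Insrr (0.996), Vipr2 (0.506), Sptbn4 (0.175) and Scn2b (0.102). Scn2b was thus in the fifth place among these 6 in Control-OIL and in the last in EHF IKO. Neighbours such as Vipr2 and Scn2b in Control-OIL (SD 0.648 and 0.219) were closer than their spread.

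The 3 nerve markers were scarce and did not separate the groups. Uchl1 (chr5:66676091-66687234, plus strand), a ubiquitin hydrolase used as a general marker of neurons, was at 0.279, 0.221, 0.255 and 0.691 CPM in Control-OIL and 0.777, 0.247, 0.212 and 0.374 CPM in Control-TMX. EHF IKO held 0.349, 0.690, 0.931 and 0.403 CPM, and no knockout library was below all controls. Elavl4 (chr4:110203722-110351909, minus strand), a neuronal RNA-binding protein, had 10, 5 and 11 reads in all in Control-OIL, Control-TMX and EHF IKO, 7 of the last in EHF IKO replicate 2. Neither gene passed the count filter. Snap25 (chr2:136713453-136782428, plus strand), a SNARE protein of regulated secretion in neurons and endocrine cells, was at 4.75, 1.88, 4.71 and 3.55 CPM in Control-OIL and 5.59, 3.21, 4.45 and 4.02 CPM in Control-TMX. It was at 3.73, 4.00, 2.66 and 1.61 CPM in EHF IKO, and only 1 knockout library lay below all controls. Its log2 fold change was -0.29 ± 0.32 (SE) against Control-OIL and -0.51 ± 0.32 against Control-TMX. None of 13 tested relatives of the 3 markers was called by edgeR, DESeq2 or limma-voom, and 1 had an unadjusted p under 0.05.

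A wider list of 24 enteric neuron genes gave a summed level of 18.9 to 23.6 CPM in Control-OIL, 22.5 to 30.7 CPM in Control-TMX and 19.2 to 40.0 CPM in EHF IKO. The lowest knockout library (19.2 CPM) was thus above the lowest Control-OIL library (18.9 CPM). Without EHF IKO replicate 2, which held 40.0 CPM, the knockout mean was 23.9 ± 6.51 CPM (n = 3), beside 21.0 ± 2.02 in Control-OIL and 25.6 ± 3.69 in Control-TMX. Of the 24 genes, 17 were under 1 CPM in the mean of every group, the neuronal tubulin gene Tubb3 (0.158, 0.163 and 0.308 CPM) among them. Of the 7 tested, edgeR called 1 higher and 0 lower (unadjusted p under 0.05: 2 higher and 1 lower; DESeq2 called 1 higher and 0 lower, and limma-voom 0 in either direction). Map2, a microtubule protein of dendrites, rose from 5.04 ± 0.977 and 4.90 ± 0.590 CPM to 10.5 ± 4.41 CPM (log2 fold change 1.07 ± 0.22, edgeR adjusted p = 0.0202; 1.3e-05 to 0.12 over the alternatives). The call ended without EHF IKO replicate 1 and without EHF IKO replicate 2. Ret, a receptor of the enteric nervous system, was at 3.30 ± 0.379, 3.37 ± 0.771 and 1.85 ± 0.624 CPM (-0.85 ± 0.25, adjusted p = 0.113).

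**Figure D3:**
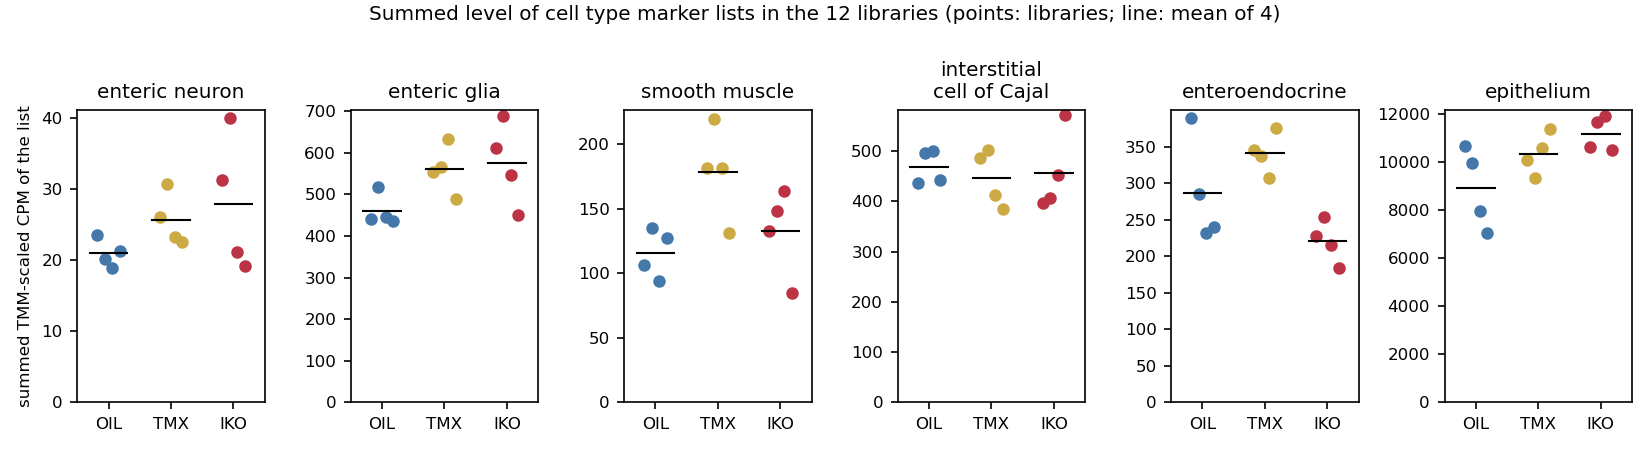
Summed TMM-scaled CPM of 6 cell type marker lists (vertical axes, each from 0) in each library by group (horizontal axes), with lines at the mean of 4 libraries. The enteric neuron sums of EHF IKO, 19.2 to 40.0 CPM, span both controls, and the enteroendocrine sums, 183 to 254 CPM, lie below all Control-TMX libraries (307 to 375 CPM) and overlap Control-OIL (232 to 389 CPM); the glia sum is made up mostly of Erbb3, at 448 to 563 CPM in the group means.

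Glial genes were as scarce as neuronal ones: Sox10 was at 0.414, 0.558 and 0.289 CPM and S100b at 0.990, 1.11 and 0.963 CPM. The glia list sum came mostly from Erbb3, which epithelium also expresses. Smooth muscle genes summed to 116, 178 and 132 CPM, with Mylk the largest single part in each group mean. Of 11 tested genes, 9 had a log2 fold change above 0 in EHF IKO against the mean of both controls, and 2 below. The medians were 0.23 there, 0.68 against Control-OIL (9 above, 2 below) and -0.19 against Control-TMX (3 above, 8 below). Against the mean edgeR called 1 of them lower, Mylk, and 0 higher. Mylk, the myosin light chain kinase found in muscle and in epithelium, fell in EHF IKO (44.0 ± 8.13 CPM, against 59.9 ± 5.31 and 74.5 ± 15.6; log2 fold change -0.60 ± 0.14, edgeR adjusted p = 0.0376, up to 0.0888 over the alternatives), a call that ended when any of 7 libraries was left out.

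The summed level of fibroblast genes was higher in the mean of EHF IKO (812 ± 262 CPM) and of Control-TMX (648 ± 132) than of Control-OIL (403 ± 59.2). The 12 genes of the list summed to 342 to 457 CPM in Control-OIL, 470 to 783 CPM in Control-TMX and 450 to 1076 CPM in EHF IKO, where the lowest library was replicate 2, and EHF IKO overlapped both controls. Against Control-OIL, where 0.921% of all genes were called higher, edgeR called 3 of the 12 higher and 0 lower (unadjusted p under 0.05: 8 higher and 1 lower; DESeq2 called 4 higher and 0 lower, limma-voom 2 and 0). Col3a1 and Col1a2, which encode fibrillar collagen chains, had log2 fold changes of 1.05 ± 0.22 and 1.10 ± 0.25 (SE; edgeR adjusted p = 0.0318 and 0.0445). Sparc, a secreted matrix protein, had one of 0.90 ± 0.20 (adjusted p = 0.0312). These calls ended when any of 8, 9 and 5 of the 12 libraries was left out, and the adjusted p reached 0.101, 0.136 and 0.121 over the alternatives. Against Control-TMX 0 of the 12 were called by edgeR, DESeq2 or limma-voom (unadjusted p under 0.05: 0 higher and 1 lower), and against the mean of both controls edgeR called 0 (6 higher and 1 lower at an unadjusted p under 0.05; DESeq2 called 3 higher, limma-voom 0). The 8 endothelial genes summed to 5.04 ± 0.773, 8.83 ± 2.44 and 10.7 ± 5.02 CPM, and edgeR called 0 of the 2 tested against either control (both had an unadjusted p under 0.05 against Control-OIL, where DESeq2 called 1 and limma-voom 0). The part of these cells in the levels of the 6 lower genes was not tested.

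Enteroendocrine genes lay mostly below 0 in the knockout as well. Of 27 listed genes 21 were tested, 19 of them below 0 in EHF IKO against the mean of both controls, with a median log2 fold change of -0.36 beside 0.01 over all genes. edgeR called 1 lower and 0 higher, where 0.858% of all genes were called lower (unadjusted p under 0.05: 7 lower and 0 higher; DESeq2 called 2 lower, limma-voom 1). Chga, the granule protein chromogranin A, fell to 46.5 ± 4.67 CPM from 63.2 ± 11.5 and 97.9 ± 12.2 (-0.76 ± 0.12, adjusted p = 0.00327, at most 0.0162 over the alternatives). Chgb was at 80.9 ± 23.7, 96.2 ± 11.003 and 62.5 ± 14.8 CPM (-0.50 ± 0.17, adjusted p = 0.216), and Tac1, the precursor gene of substance P, at 4.14 ± 1.08, 2.39 ± 0.899 and 1.37 ± 0.793 CPM (-1.20 ± 0.33, adjusted p = 0.0917). Against Control-OIL alone, 14 of the 21 were below 0 and 7 above (median -0.22). Against Control-TMX alone, 19 were below and 2 above (median -0.45). Between the controls, 14 were higher and 7 lower in Control-TMX (median 0.22). Chga had -0.44 ± 0.13 (edgeR adjusted p = 0.123) against Control-OIL and -1.07 ± 0.13 (adjusted p = 0.00125) against Control-TMX. Against Control-OIL edgeR called Tac1 lower (-1.58 ± 0.36, adjusted p = 0.0387), a call lost on leaving out any of 8 libraries. The summed level was 287 ± 72.5, 341 ± 28.0 and 220 ± 29.4 CPM. Without EHF IKO replicate 2 the knockout sum was 209 ± 23.0 CPM (n = 3). Chga resembled Aplp1 in being highest in Control-TMX. The part of enteroendocrine RNA in the levels of the 6 genes was not tested. In bulk RNA, fewer cells of a type and less RNA per cell cannot be told apart.

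**Figure D4:**
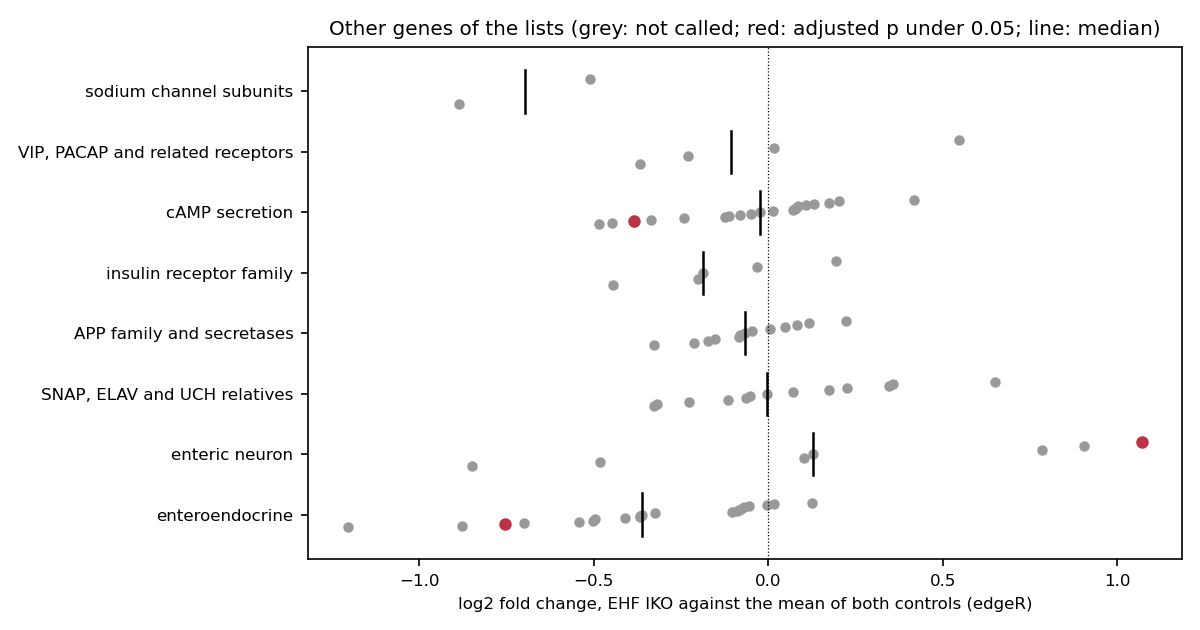
Log2 fold change in EHF IKO against the mean of both controls (horizontal axis, edgeR) for the tested genes of 8 lists (vertical axis), the 10 genes themselves left out; red marks adjusted p under 0.05 and lines mark medians. Red points are Map2 (1.07), Adcy9 (-0.38) and Chga (-0.76), and the enteroendocrine genes lie mostly below 0, with a median of -0.36.

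The comparison of Control-TMX with Control-OIL was not itself used in choosing the genes, and they were tested in it. The same control libraries entered the choice through the comparisons with EHF IKO, so these p-values are not fully independent of the choice. edgeR called 0 of the 8 genes that passed the filter, beside 0.0826% of all genes tested (13 of 15743). At an unadjusted p under 0.05 there were 3 of 8, and DESeq2 called 2 of 8 and limma-voom 0 of 8. Scn2b was lower in all 4 Control-TMX libraries than in any Control-OIL library, as in 3.2% of all genes (log2 fold change -1.23 ± 0.30, unadjusted p = 0.00085, edgeR adjusted p = 0.145). Over 21 alternatives its adjusted p ran from 0.00249 to 0.373, and it passed without the count filter (0.00249) and in DESeq2 (0.0131). Aplp1 was higher in all 4 Control-TMX libraries than in any Control-OIL library, as in 3.68% of all genes (0.71 ± 0.15, unadjusted p = 0.00028, edgeR adjusted p = 0.114). Its adjusted p ran from 0.000737 to 0.385 and passed without the filter (0.000737), in DESeq2 (0.00439) and without EHF IKO replicate 4 (0.0283). Insrr had a log2 fold change of 0.64 ± 0.29 (unadjusted p = 0.0459, edgeR adjusted p = 0.379, 0.0263 to 0.749 over the alternatives) and Smim38 of 0.50 ± 0.24 (adjusted p = 0.399). Sptbn4 (0.16 ± 0.32), Vipr2 (0.10 ± 0.27), Vipr1 (0.14 ± 0.12) and Snap25 (0.22 ± 0.31) had adjusted p-values of 0.658 to 0.909. The 2 controls differ in mouse line as well as in treatment, and these cannot be told apart.

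Among the insulin receptor family, Irs2, an adaptor of insulin signalling, rose in Control-TMX, from 55.6 ± 9.73 to 97.9 ± 14.2 CPM (0.81 ± 0.14, edgeR adjusted p = 0.0418, up to 0.162 over the alternatives), a call that ended when any of 9 libraries was left out. The rise was not particular to Control-TMX. In EHF IKO Irs2 was at 84.4 ± 11.1 CPM, also called higher than in Control-OIL (0.60 ± 0.14, edgeR adjusted p = 0.0404). In that comparison DESeq2 called 1 gene of the family higher and limma-voom 0. Against Control-TMX, Irs2 in EHF IKO had -0.21 ± 0.14 (edgeR adjusted p = 0.594).

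Within the 8 control libraries, which lack the contrast used to choose the genes, each of the 6 was set against the mean log2 CPM of 8 neuronal genes (Ret, Syn1, Map2, Chat, Nos1, Ncam1, Rtn1 and Snap25), after removing the group means. Pearson's r was 0.66 for Scn2b, 0.38 for Sptbn4, 0.53 for Vipr2, 0.54 for Insrr and 0.26 for Aplp1, with exact permutation p-values of 0.128 to 0.569 and Spearman's rho of 0.64, 0.43, 0.45, 0.64 and 0.02 (exact permutation p of 0.111 to 0.976). Smim38 had r = 0.77 (exact two-sided p = 0.0451 over 576 permutations within groups, 0.271 adjusted by Benjamini-Hochberg over the 6 genes) and rho = 0.83 (p = 0.0243, adjusted 0.146, exact). None passed after adjustment. Without the 2 libraries farthest from the median level, r was 0.31 for Smim38 and 0.16 for Vipr2 and was negative for the other 4 genes, so these relations rested on those libraries.

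The 6 genes also varied together to different degrees inside the groups. Over all 12 libraries with group means removed, r was 0.80 between Vipr2 and Insrr, 0.75 between Sptbn4 and Smim38 and 0.74 between Insrr and Smim38, whereas Aplp1 had r of 0.13 with Vipr2 and 0.21 with Insrr. Vipr1 had r of -0.53 with Vipr2. These values share library scaling and come from few reads, and are given as a description without a test.

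Tested genes outside the set were ranked by Pearson's r of their log2 CPM with the mean profile of the 6 over the 12 libraries. Genes under a floor on average level and those with Gm-number or Rik symbols were left out. The closest were Chrm1 (r = 0.96), Rph3al (0.95), Grk3 (0.95), Zfp523 (0.94), Slc17a9 (0.94) and Rap1gap (0.94). That profile was lower in every EHF IKO library than in any control, as the choice of the 6 implies. A high r thus mostly picks other genes lower in EHF IKO, and it is given as a description. Chrm1, a muscarinic acetylcholine receptor, was at 9.86 ± 1.204, 12.2 ± 0.793 and 6.03 ± 0.558 CPM. Rph3al, a Rab effector of regulated exocytosis, was at 22.6 ± 2.49, 26.3 ± 4.11 and 12.6 ± 1.204 CPM. Grk3, a kinase of G protein-coupled receptors, was at 18.2 ± 2.69, 19.3 ± 3.29 and 7.78 ± 2.35 CPM. Slc17a9, a vesicular nucleotide transporter, was at 70.6 ± 11.1, 90.6 ± 7.58 and 44.2 ± 5.73 CPM. Among the 6 themselves, r with that mean profile, which contains each of them, was 0.98 for Smim38, 0.83 for Scn2b and 0.76 for Aplp1.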

How the data were processed

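The deposited values are read counts per gene symbol in 12 libraries. Per the file headers, the authors counted reads over exons with featureCounts 1.6.1 on Ensembl GRCm38 release 98, with strand setting 0. STAR is named in the submitters' processing notes without a version. Groups come from the labels. Nothing beyond the labels and animal numbers says that samples were prepared separately.

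Counts were fitted with edgeR 4.0.16 (TMM, filterByExpr, 1 robust quasi-likelihood fit of all 12 libraries with 9 residual degrees of freedom, common biological coefficient of variation 18.3%), adjusted by Benjamini-Hochberg over 15743 genes and called at an adjusted p under 0.05. On simulated data for EHF IKO against the mean of both controls over 15743 genes, this recovered 74% of genes changed 2-fold and 98% of those changed 4-fold, with 5 false calls. DESeq2 1.42.0, limma 3.58.1, other filters and scalings, a sex covariate, a replicate block and leaving out each library were alternatives. Log2 CPM used a prior count of 2. The members and gene lists were chosen with earlier results of these data known. Beside the members, named genes were their closest relatives, up to 4 genes per list with the smallest p, and the 6 most similar profiles; Cftr, Vip, Adcyap1, genes that overlap the members, and the defining neuron and glia markers were named after their values were seen. Of the 10 tested genes of the lists not described in the text (interstitial cell of Cajal and immune), edgeR, DESeq2 and limma-voom called 0 in EHF IKO against either control or their mean; at an unadjusted p under 0.05 there were 2 against the mean, 3 against Control-OIL and 2 against Control-TMX. Of 9 tuft cell genes edgeR called 1, Dclk1, higher (log2 fold change 0.72 ± 0.16, adjusted p = 0.0384), a call that ended when any of 10 libraries was left out. Isoforms were not analysed here, and some genes of the lists are not reported here.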

Additional observations from a re-analysis of the deposited data

Results flagged for a closer look

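In 30 groups of 4 libraries (10 genes in 3 groups), 3 held a highest value far from the others, where the gap to the next library over the group's range passed Dixon's 95% critical value. Chance gives about 5%. Scn2b in Control-TMX replicate 2 was at 4.573 CPM, beside 2.118 to 2.431 CPM in the other 3 libraries. Sptbn4 in the same library was at 8.651 CPM, beside 4.661 to 5.236 CPM. Uchl1 in Control-OIL replicate 4 was at 0.6912 CPM, beside 0.2213 to 0.2795 CPM, and that value rests on 7 reads.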

How the results depend on the processing

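In EHF IKO against each control and their mean, all 496 recomputed log2 fold changes of the 8 genes moved by less than the spread between replicates. Since these contrasts chose the 6 lower genes, neither this nor their number past the threshold (4 to 6 against the mean, 2 to 5 against Control-OIL and 5 to 6 against Control-TMX) says anything about their stability.

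Genes called against the mean numbered 270, with 831 without a filter, 471 in DESeq2 and 108 to 522 leaving out 1 library. Against Control-OIL they numbered 265, with 724 without a filter, 534 in DESeq2, about 1.1e+02 with only these groups and 104 to 711 leaving out 1 library. Against Control-TMX they numbered 126, with 500, 305 and 50 to 162. Between the controls they numbered 13, with 441 without a filter, 196 in DESeq2, 5 at a mean log2 CPM of at least 1, 8 in limma-voom, 38 with sex as a covariate and 3 to 67 leaving out 1 library. The highest counts came without EHF IKO replicate 4. Fitting only the compared groups equals the full fit for the mean of both controls and was not run.

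Same-numbered samples correlated at -0.406 to 0.405 and not all best with their own number. Between Control-TMX and EHF IKO the values were 0.219, 0.11, 0.0998 and 0.405, with replicates 1, 3 and 4 best with their own number. Control-OIL samples were never best with their own number. The replicate numbers also run with sex in every group, so this check cannot decide whether they pair the samples. The replicate block gave 148, 173, 72 and 18 calls in these 4 comparisons and, among the list genes, ended the calls of Map2, Adcy9 and Dclk1 against the mean, of Tac1 against Control-OIL and of Irs2 between the controls.

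Between the controls, the sign turned for Sptbn4 (-0.045 without Control-OIL replicate 4, -0.078 without Control-TMX replicate 2; -0.078 to 0.37 leaving out 1 library), Vipr2 (-0.12 without Control-OIL replicate 3, -0.051 without Control-TMX replicate 3; -0.12 to 0.28) and Snap25 (-0.011 without Control-OIL replicate 2; -0.011 to 0.35), none of them called. The correlation with the neuronal level within controls turned, without the 2 farthest libraries, to -0.69 for Scn2b, -0.061 for Sptbn4, -0.19 for Insrr and -0.082 for Aplp1. With the level taken from Uchl1, Snap25 and Elavl4 alone it was -0.58 for Scn2b, -0.77 for Sptbn4, -0.11 for Vipr2, -0.22 for Insrr and -0.41 for Smim38.

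Depth limits these genes: Scn2b rests on 15 reads over the 4 EHF IKO libraries, Elavl4 on at most 11 in any group.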
